A study of Mus musculus with 4 samples.

Results

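Macrophages of the mouse pituitary were described from 204 nuclei, found among 35615 nuclei that passed the quality limits in 4 single-nucleus RNA-seq libraries. A nucleus was taken as a macrophage nucleus when it was one with at least 1 UMI (a unique molecular identifier, counting 1 captured transcript) in 3 or more of the 8 genes Mrc1, F13a1, Csf1r, Ptprc, Dock2, Cx3cr1, C1qa and Cd163, Mrc1, F13a1 or Csf1r being among them. It also needed at least 500 detected genes, under 5% mitochondrial UMIs, and no more than 1 UMI of Ghrhr, Pappa2 and Epha6 summed. The nuclei were thus chosen by their measured UMIs of these genes. Each library came from 3 snap-frozen pituitaries, pooled, of wild-type UM-HET3 mice, an outcross stock of mixed genetic background. The labels name no treatment. The groups were 22-month males, with 66 macrophage nuclei of 12066, 22-month females, with 62 of 8130, 5-month males, with 35 of 7999, and 5-month females, with 41 of 7420. There was 1 library per group and therefore no replicate of any group, and below each library is called by its label.

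The libraries held 65773807, 49262366, 33328821 and 35240987 UMIs in the 22-month male, 22-month female, 5-month male and 5-month female libraries. Sex-linked transcripts went against 2 of the 4 labels. The library labelled 22-month males carried Xist, the transcript of the inactive X chromosome, at 2524 CPM (UMIs per 1000000 UMIs of the nuclei summed) in its other nuclei, and the library labelled 5-month females carried the Y-linked Uty at 257 CPM and Xist at 0.809 CPM. A contrast of labelled ages is therefore also one of Xist-bearing libraries against libraries with Y-linked transcripts, and these cannot be told apart. A contrast of labelled sexes sets libraries with like sex-chromosome transcripts against each other. Whether these 2 libraries were exchanged or only their sex labels are wrong cannot be told apart here. Had they been exchanged, the contrast of labelled ages would be one of sexes, and that of labelled sexes, males less females, one of 5-month less 22-month mice. No macrophage barcode was a macrophage barcode in more than 1 library, although 157 barcodes occurred in 2 or more libraries.

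Tissue macrophages are long-lived phagocytes that depend on the receptor encoded by Csf1r and on the transcription factor PU.1, encoded by Spi1. They clear dying cells, supply complement, handle lipid and iron, and present antigen to T cells on MHC class II. In and around the brain, parenchymal microglia are told from the macrophages of its borders by Tmem119, P2ry12, Siglech and Sall1 on one side and by Mrc1, Ms4a7, F13a1 and Lyve1 on the other. The pituitary has a glandular lobe with fenestrated capillaries and a neural lobe that is an extension of the brain, and nuclei of both lobes can be present in a whole gland.

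Promoter sequences of 4 macrophage-enriched genes are shown because they hold the core motif to which PU.1 binds, GAGGAAGT, or ACTTCCTC on the opposite strand. The motif is in capitals in the 250 bases before the gene start, taken 5′ to 3′ along the gene's own strand from RefSeq for GRCm38.p6. Vav1, a guanine nucleotide exchange factor of blood cells, is at chr17:57278850-57279099 on the plus strand. Havcr2, an inhibitory immune receptor, is at chr11:46454681-46454930 on the plus strand. C1qc, a chain of complement component C1q, is at chr4:136892915-136893164 on the minus strand. Inpp5d, the inositol phosphatase SHIP of blood cells, is at chr1:87620062-87620311 on the plus strand.
Vav1: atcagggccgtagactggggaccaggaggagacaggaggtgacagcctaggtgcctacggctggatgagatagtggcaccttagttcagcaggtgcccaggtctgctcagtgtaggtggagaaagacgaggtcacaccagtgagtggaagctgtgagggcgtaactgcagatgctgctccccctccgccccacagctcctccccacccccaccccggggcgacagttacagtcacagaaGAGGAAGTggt
Havcr2: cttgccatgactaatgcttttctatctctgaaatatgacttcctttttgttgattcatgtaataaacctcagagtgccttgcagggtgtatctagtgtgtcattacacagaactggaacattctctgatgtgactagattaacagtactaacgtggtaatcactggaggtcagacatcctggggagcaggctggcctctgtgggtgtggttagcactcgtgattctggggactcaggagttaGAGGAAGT
C1qc: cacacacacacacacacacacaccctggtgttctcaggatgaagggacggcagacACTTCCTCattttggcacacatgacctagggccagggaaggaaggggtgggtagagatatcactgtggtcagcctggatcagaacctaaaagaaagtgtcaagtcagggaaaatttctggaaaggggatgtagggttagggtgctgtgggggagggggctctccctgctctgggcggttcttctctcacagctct
Inpp5d: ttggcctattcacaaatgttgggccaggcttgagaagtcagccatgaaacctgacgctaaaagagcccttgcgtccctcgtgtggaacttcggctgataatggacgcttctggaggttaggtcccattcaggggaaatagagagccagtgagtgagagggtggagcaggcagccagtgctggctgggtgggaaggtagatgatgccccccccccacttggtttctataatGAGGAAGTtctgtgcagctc
The motif began 11, 8, 195 and 20 bases before the start of Vav1, Havcr2, C1qc and Inpp5d. The summed level of these genes in macrophage nuclei over that in other nuclei was 149-fold for Vav1, 148-fold for Havcr2, 147-fold for C1qc and 132-fold for Inpp5d. In macrophage nuclei 447 genes had at least 20 UMIs and a level 10-fold or more above that of other nuclei. Of these, 342 had a promoter in the table, and 35 of the 342, 10.2%, held the motif on either strand. The share was 6.34% of 1010 such genes at least 2-fold higher, 2.48% of 4272 under 2-fold, and 2.79% of all 27025 genes in the table. Of the 25 genes with the highest ratios, 21 had a promoter, and none of the 21 held it. All promoters had the same length. A gene was counted once if any of its promoters held the motif, so genes with more promoters had more chances. A match is a run of letters in this window and was not tested as a binding site.

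The label was checked against the markers. Csf1r had a UMI in 81.9% of the macrophage nuclei, C1qa in 83.3%, Ptprc, the pan-leukocyte phosphatase CD45, in 72.1%, Dock2, a leukocyte migration factor, in 67.6%, and Cx3cr1, the fractalkine receptor, in 66.2%. In the 518 endothelial nuclei, which should lack these transcripts, the shares were 1.35% for Csf1r, 3.86% for C1qa, 1.35% for Ptprc, 2.70% for Dock2 and 5.41% for Cx3cr1. The depths were near each other, with median UMIs of 2611.5, 2489.5, 2350 and 2121 in macrophage nuclei and 2807, 3087, 1805 and 2190 in endothelial nuclei of the 22-month male, 22-month female, 5-month male and 5-month female libraries. These genes chose the nuclei, so their levels are a description. Among markers outside the rule, C1qb had a UMI in 68.6% of macrophage and 4.25% of endothelial nuclei, C1qc in 64.7% and 2.51%, Ms4a7 in 67.6% and 1.16%, and Spi1 in 47.5% and 0.965%. Mertk, a receptor for dying cells, had a UMI in 56.9% of macrophage and 18.3% of endothelial nuclei.

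The border macrophage list was mixed. It summed to 1772 CPM in macrophage nuclei and 67.6 CPM in the others, and of its 22 genes 8 reached 20 UMIs, 7 of them at least 2-fold higher, or 5 of 6 without the rule genes. Ms4a7 stood at 635 and 3.89 CPM and Dab2, an endocytic adaptor, at 242 and 11.2 CPM in macrophage and other nuclei, while other genes of the list were close to absent. Mrc1, the mannose receptor, had a UMI in 85 of the 204 nuclei, but F13a1, the coagulation factor XIII subunit, in 10 and Cd163, the haemoglobin scavenger receptor, in 2. Lyve1 and Timd4 had no UMI and Folr2 had 3. No nucleus carried all 8 rule genes: 59 nuclei carried 3 of them, 69 carried 4, 56 carried 5, 19 carried 6 and 1 carried 7. Mrc1 and Cx3cr1 were both seen in 49 nuclei, Mrc1 alone in 36, Cx3cr1 alone in 86 and neither in 33.

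Nuclei just inside and just outside the rule are given by their levels of C1qb and C1qc, which the rule did not use. The summed level of both was 1244, 987, 612 and 249 CPM in nuclei with exactly 3 rule genes (21, 12, 13 and 13 nuclei in the 22-month male, 22-month female, 5-month male and 5-month female libraries). It was 207, 0, 106 and 63.9 CPM in nuclei with exactly 2 (5, 5, 11 and 11 nuclei in the same libraries). Nuclei with 1 UMI of the 3 excluded genes numbered 9, 6, 7 and 5, and those with 2 UMIs, left out by the rule, numbered 1, 2, 1 and 3. A further 21, 31, 8 and 8 nuclei carried over 2 UMIs of the excluded genes and were left out. In the same order of libraries, C1qb and C1qc summed to 465, 1177, 654 and 218 CPM in nuclei with 1 UMI of the excluded genes. They summed to 0, 854, 437 and 408 CPM in those with 2 UMIs, and to 177, 149, 239 and 146 CPM in those with over 2. Nuclei left out with 2 UMIs were thus not lower in every library than those kept with 1.

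Within the 204, the share of UMIs that fell in macrophage-enriched genes fell in 2 ranges. Of 6676 genes with at least 20 UMIs in macrophage nuclei, 1277, or 19.1%, were at least 2-fold higher there than in the other nuclei, and 434, or 6.50%, were at least 2-fold lower. The limit of 20 UMIs counts macrophage nuclei alone, so it drops listed genes that are low there. Every count of listed genes that reached 20 UMIs has this limit, and 19.1% is the share of all genes beside it. In 151 nuclei the 1277 genes took 20% or more of the UMIs, with a median of 29.9%, a median depth of 2070 UMIs and 2 nuclei called doublets by Scrublet. In 53 nuclei they took less, with a median of 11.4%, a median depth of 5861 UMIs and 31 doublet calls. The limit of 20% was set after this division was seen, and 4 nuclei lay between 15% and 20% and 14 between 20% and 25%. The 53 nuclei numbered 20 in 22-month males, 5 in 22-month females, 15 in 5-month males and 13 in 5-month females. They carried 57.6%, 20.01%, 71.3% and 66.3% of the macrophage UMIs of those libraries, so summed levels are given below for all 204 nuclei and, where the result turns on it, for the 151.

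**Figure D1:**
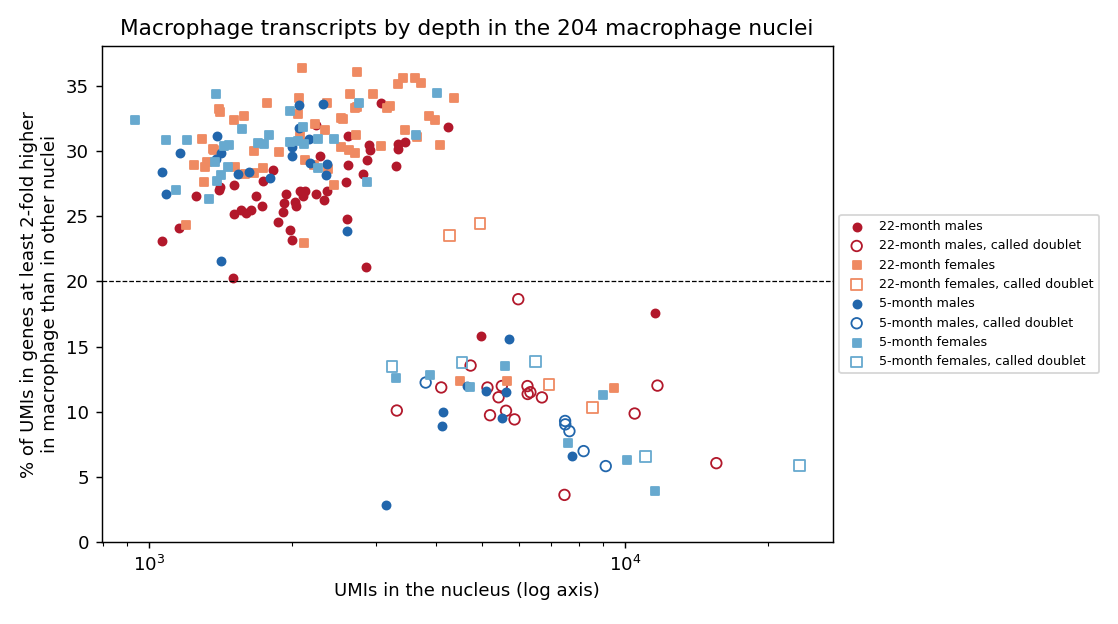
Each point is 1 of the 204 macrophage nuclei, placed by its UMIs (log axis) and by the percentage of them in the genes at least 2-fold higher in macrophage than in other nuclei, with open symbols for nuclei called doublets and the dashed line at 20%. The 151 nuclei above the line have a median of 2070 UMIs and the 53 below it a median of 5861 UMIs, with 31 of the 33 doublet calls below the line.

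Among signalling genes of leukocytes, all 27 of the 28 listed genes that reached 20 UMIs were at least 2-fold higher in macrophage nuclei, or 25 of 25 without the rule genes Ptprc and Dock2. Fyb, an adaptor of immune receptors, stood at 1189 CPM in macrophage nuclei and 7.23 CPM in the other nuclei. Arhgap15, a Rac regulator, stood at 997 and 23.7 CPM, Lyn, a Src-family kinase, at 851 and 21.3 CPM, and Inpp5d at 766 and 5.79 CPM in macrophage and other nuclei. The rule gene Csf1r, whose level the choice of nuclei raised, had the highest ratio of the 2890 genes with at least 50 UMIs in macrophage nuclei and 5 in every library, 403 CPM in macrophage nuclei and 1.21 CPM in the others, with 375, 479, 398 and 363 CPM in the 22-month male, 22-month female, 5-month male and 5-month female libraries. The 24 genes that followed it included Fcrls, Siglech, Cd33, Fcgr3, Il10ra, Itgam, Pld4, Il21r, Mrc1, Cyth4, Gatm, Lilrb4a, Csf3r, Ccr2 and Gpr65, with ratios from 185 for Gpr65 to 323 for Gm2629, a predicted gene.

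Macrophage transcription factors followed the same line, with all 16 of the 22 listed genes that reached 20 UMIs at least 2-fold higher. Spi1 stood at 203 CPM in macrophage nuclei and 1.19 CPM in the others, and its libraries held 158, 308, 223 and 140 CPM in the 22-month male, 22-month female, 5-month male and 5-month female libraries. Zeb2, a repressor that maintains tissue macrophage identity, stood at 1258 and 60.2 CPM, Runx1 at 423 and 9.16 CPM, Maf at 294 and 8.15 CPM, and Irf8, needed for the mononuclear phagocyte lineage, at 126 and 1.42 CPM in macrophage and other nuclei.

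Transcripts of MHC class II antigen presentation were higher in these nuclei than in the others for all 11 of the 12 listed genes that reached 20 UMIs. Cd74, the class II invariant chain, stood at 1801 CPM in macrophage nuclei and 24.2 CPM in the others, H2-Eb1 at 746 and 8.74 CPM, H2-Ab1 at 562 and 6.93 CPM, and H2-Aa at 510 and 7.22 CPM. Cd74 was at 1497, 2074, 2151 and 1679 CPM in the 22-month male, 22-month female, 5-month male and 5-month female libraries. It stood at 302 CPM in the 75 other leukocyte nuclei of the 4 libraries. Those nuclei were outside the rule, with a UMI of Ptprc and of 2 or more genes of the T, natural killer and B cell lists. Their median depths were 6945, 7478, 3613 and 1669.5 UMIs in the same order of libraries, so depth was not matched, and mixed nuclei among them were not tested for. Ciita, the activator of class II transcription, stood at 115 and 2.54 CPM, and the co-stimulatory Cd86 at 225 and 1.33 CPM in macrophage and other nuclei. The class II genes were not even across nuclei: 48 of the 204 had no UMI of the 4 genes, 120 had at least 5, the median was 8 and the highest 80.

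Complement genes were at least 2-fold higher in 6 of the 6 that reached 20 UMIs, or 5 of 5 without the rule gene C1qa. Among the chains of C1q, C1qa was at 764 CPM in macrophage nuclei and 6.39 CPM in the others, C1qb at 487 and 4.17 CPM and C1qc at 405 and 2.77 CPM. C1qa was at 930, 775, 669 and 572 CPM in the 22-month male, 22-month female, 5-month male and 5-month female libraries. The receptors for the anaphylatoxins, C3ar1 and C5ar1, stood at 58.7 and 54.4 CPM in macrophage nuclei and 0.428 and 0.339 CPM in the others. Among receptors for dying cells and modified lipoproteins, 11 of the 12 that reached 20 UMIs were at least 2-fold higher, among them Mertk at 384 and 5.45 CPM, Havcr2 at 153 and 1.04 CPM, and Trem2, a lipid-sensing receptor, at 87.4 and 0.605 CPM in macrophage and other nuclei. Stab1, a scavenger receptor of border macrophages that endothelium also uses, stood at 225 and 2.78 CPM in macrophage and other nuclei, with 86.9 CPM in endothelial nuclei.

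Apoe, the lipid carrier apolipoprotein E, had 2902 UMIs, with 4157 CPM in macrophage nuclei and 79.0 CPM in the others. It stood at 4296, 5755, 4221 and 2112 CPM in the 22-month male, 22-month female, 5-month male and 5-month female libraries, and the other nuclei of these libraries were between 69.5 and 83.3 CPM. Of the lysosomal proteases, Ctsc was at 388 CPM in macrophage nuclei and 13.5 CPM in the others, and Lgmn at 268 and 21.5 CPM. Of 8 iron-handling genes with 20 UMIs, 6 were at least 2-fold higher, among them Slc11a1, the phagosomal metal transporter NRAMP, at 68.8 and 0.727 CPM and Trf, transferrin, at 120 and 1.99 CPM in macrophage and other nuclei.

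Of the 14 receptor genes listed, all reached 20 UMIs and 13 were at least 2-fold higher, among them Tgfbr1, a receptor for transforming growth factor beta, at 1554 CPM in macrophage nuclei and 75.9 CPM in the others, as well as Il10ra at 222 and 1.01 CPM and Il21r at 75.9 and 0.366 CPM. Of 31 cytokine and inflammation genes, 13 reached 20 UMIs. Among these, Cxcl16, a scavenger-receptor chemokine, was at 191 and 1.83 CPM, Tgfb1 at 80.2 and 1.57 CPM, Il1b at 51.6 and 0.483 CPM, and Tnf at 38.7 and 0.117 CPM in macrophage and other nuclei. Of 16 listed Fc receptor and pattern receptor genes, 11 reached 20 UMIs in macrophage nuclei, and these 11 were at least 2-fold higher. Among them Tlr7, the endosomal sensor of single-stranded RNA, stood at 119 and 0.461 CPM and Fcgr3 at 105 and 0.466 CPM in macrophage and other nuclei.

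**Figure D2:**
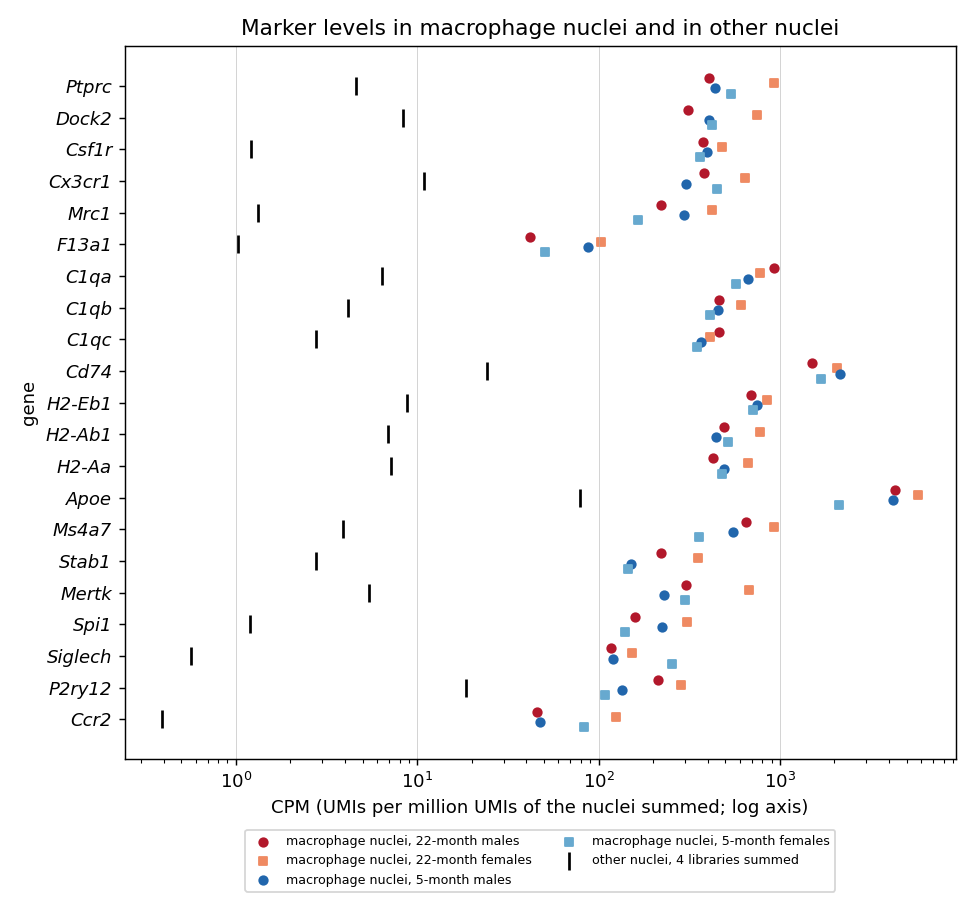
Points give the CPM (log axis) of 21 marker genes in the macrophage nuclei of each library, and the black bar gives the CPM in all other nuclei of the 4 libraries summed. Every marker shown stands above the bar in all 4 libraries, including C1qb, C1qc, Cd74, Apoe and Spi1, which the rule did not use. The rule gene Cd163, at 0 CPM in 22-month males and 5-month females, is not shown. Lyve1, at 0 CPM in all 4 libraries, and Folr2, at 0 CPM in the 5-month libraries, are also not shown.

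Hormone transcripts were also present. The list of 7 hormone genes summed to 10.97%, 5.32%, 13.3% and 6.99% of the macrophage UMIs in the 22-month male, 22-month female, 5-month male and 5-month female libraries, and none of the 6 genes that reached 20 UMIs was 2-fold higher or lower than in the other nuclei. Their part in the results below was not tested. Receptors for hormones were mixed: Esr1, the estrogen receptor alpha, stood at 258 CPM in macrophage nuclei and 730 CPM in the others and Nr3c1, the glucocorticoid receptor, at 244 and 113 CPM. Most lists of markers of other cells had few UMIs. The natural killer and mast cell lists had no UMI, the neutrophil list had 3, the stem list 9, the T cell list 21, the fibroblast and mural list 36, the dendritic cell list 55, the endothelial list 67 and the B cell list 77 in all 204 nuclei. The pituicyte list was the exception, with 241 UMIs, at 345 CPM in macrophage nuclei and 217 CPM in the others. Of its 173 UMIs in 22-month males, 126 were in 1 nucleus. Its gene Col25a1 had 114 UMIs, all in 22-month males, and Slc1a3 had 104. The proliferation list of 14 genes had 44 UMIs, and Mki67 had 1. The monocyte list had 101 UMIs.

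Leiden clustering of the 204 nuclei alone gave 8 clusters, described here by their leading genes with no test, since the genes also made the clusters. Cluster 1, with 37 nuclei, was led by Gm10790 and the microglial regulator Sall1 and held Siglech at 583 CPM against 58.3 CPM in the remaining macrophage nuclei. All 12 microglia genes were seen in it, at 3742 CPM together, while Ms4a7 stood at 30.3 CPM and Cd74 at 288 CPM, and it is called microglia-like. Markers of pituicytes, the glia of the neural lobe, were also highest there: that list stood at 1485 CPM in cluster 1 and 79.5 CPM in the rest, and its gene Slc1a3 at 583 and 47.7 CPM. The 1 nucleus of 22-month males with 126 UMIs of the list is in cluster 1, since the rest held fewer in all. Slc1a3 had a UMI in 19 nuclei of the cluster. The part of the pituicyte markers in the cluster was not tested. Cluster 2, with 18 nuclei, was led by Fn1 and Plac8 and held Ccr2, the receptor by which monocytes leave the blood, at 903 CPM in the cluster against 12.3 CPM in the rest. Of the 8 monocyte genes 7 were seen in it, at 1806 CPM together, and it is called monocyte-like, although Ccr2 had a UMI in 9 of its nuclei and Plac8 in 5.

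The other clusters were left unnamed. Cluster 6, with 40 nuclei, was led by Igf1 and Mrc1, with Mrc1 at 1101 CPM in the cluster and 117 CPM in the rest, and also by Cd38, F13a1 and Aoah. The border macrophage list summed to 4504 CPM in it and 1262 CPM in the rest. Cluster 5, with 20 nuclei, was led by Vcam1, and Cd74 reached 5914 CPM there against 1579 CPM in the rest. Cluster 8, with 13 nuclei, was led by the chemokine Ccl12, the RNA sensor Ifih1 and the interferon signalling gene Stat2, with the interferon list at 4202 CPM. Ccl12 and Ifih1 each had a UMI in 4 of its nuclei and Stat2 in 6. Cluster 7, with 37 nuclei, was led by Ifnlr1 and held Il1b and Pdgfc. Cluster 3, with 17 nuclei, was led by Jun and Junb, which had a UMI in 4 and 5 of its nuclei. Cluster 4 held 22 nuclei of high depth, with a median of 7914.5 UMIs, and 16 of them were called doublets. A lower resolution gave 4 clusters in place of 8.

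**Figure D3:**
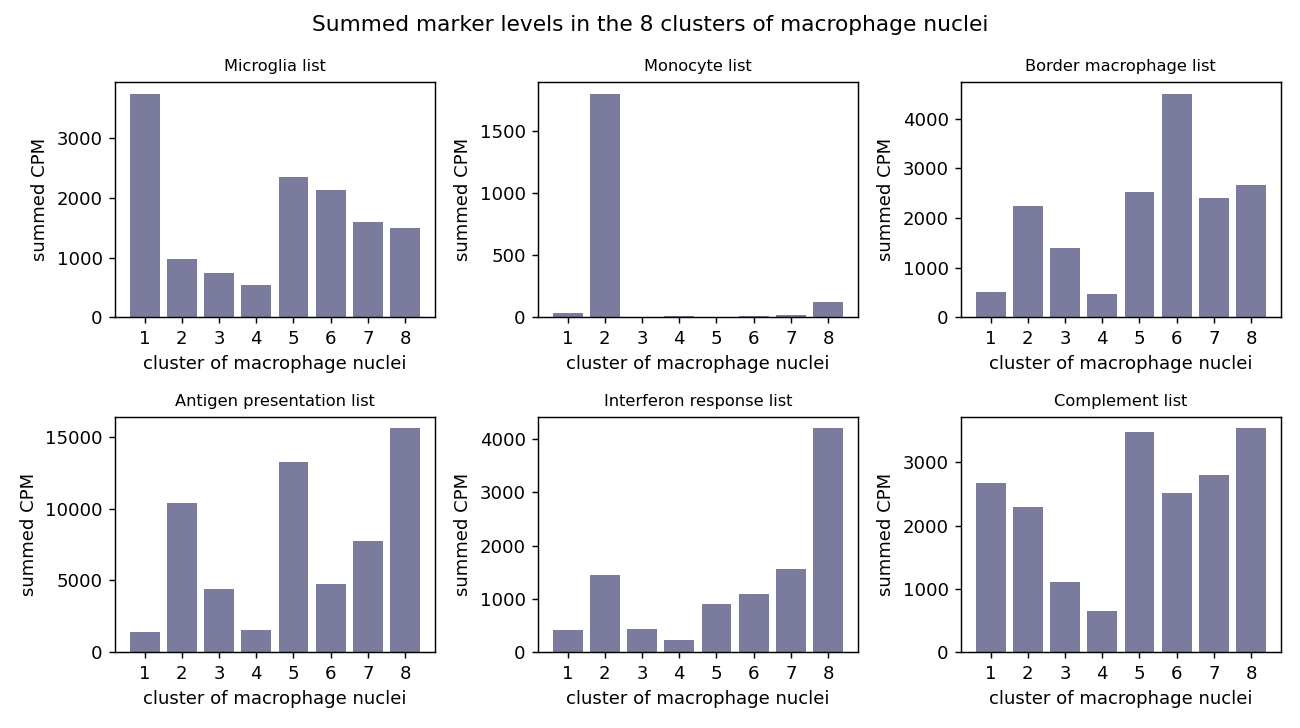
Bars give the summed CPM of 6 marker lists in each of the 8 clusters of macrophage nuclei. The microglia list peaks in cluster 1 at 3742 CPM, the monocyte list in cluster 2 at 1806 CPM, the border macrophage list in cluster 6 at 4504 CPM, and the interferon list in cluster 8 at 4202 CPM.

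Single markers also divided the nuclei. The 49 nuclei with a Siglech UMI carried the 4 class II genes at 1697 CPM, and the 155 without one at 4303 CPM. Their Ms4a7 level was 256 CPM with and 769 CPM without a Siglech UMI. The 14 nuclei with a Ccr2 UMI carried class II at 6869 CPM, against 3396 CPM in those without. They also carried more Siglech, 401 CPM against 141 CPM in those without, whereas the monocyte-like cluster 2 had 82.1 CPM of Siglech against 163 CPM in the rest. Nuclei with and without a Tmem119 UMI had class II levels of 3647 and 3615 CPM. The 85 nuclei with an Mrc1 UMI had Apoe at 5943 CPM and Stab1 at 389 CPM, against 3082 and 126 CPM in the 119 without one.

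Macrophage nuclei made up 0.547% of passing nuclei in 22-month males (exact Clopper-Pearson 95% interval 0.423 to 0.695) and 0.763% in 22-month females (0.585 to 0.977), against 0.438% in 5-month males (0.305 to 0.608) and 0.553% in 5-month females (0.397 to 0.749). The intervals overlapped between ages. The ratio of the 22-month to the 5-month share was 1.25 in libraries labelled male (exact conditional interval 0.818 to 1.94) and 1.38 in those labelled female (0.915 to 2.10). The male to female ratio was 0.717 at 22 months (0.499 to 1.03) and 0.792 at 5 months (0.490 to 1.27). With only the 151 nuclei the shares were 0.381% and 0.701% in 22-month males and females, against 0.250% and 0.377% in 5-month males and females. The ratio was then 1.52 in males (0.884 to 2.72) and 1.86 in females (1.16 to 3.03), and 0.544 for 22-month males over 22-month females (0.361 to 0.816). The ratio of the ages in females also left 1 with at least 4 rule genes (1.63, 1.01 to 2.69). It did so without the limit on the 3 excluded genes (1.67, 1.18 to 2.39) and after thinning to 1500 UMIs (1.99, 1.12 to 3.69). The male to female ratio at 22 months left 1 under the same settings. It was 0.606 (0.396 to 0.926), 0.624 (0.462 to 0.843) and 0.541 (0.329 to 0.884) in that order, and 0.578 (0.386 to 0.863) without doublets. In females the interval of the age ratio held 1 without doublets (1.47, 0.953 to 2.29). It also held 1 with at least 2 rule genes (1.18, 0.806 to 1.72) or at least 300 genes (1.37, 0.911 to 2.09). The interval of the age ratio in males held 1 under every setting. These intervals cover counting error only. No test across libraries was made, because 2 libraries against 2 cannot reach an exact permutation p under 0.05.

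**Figure D4:**
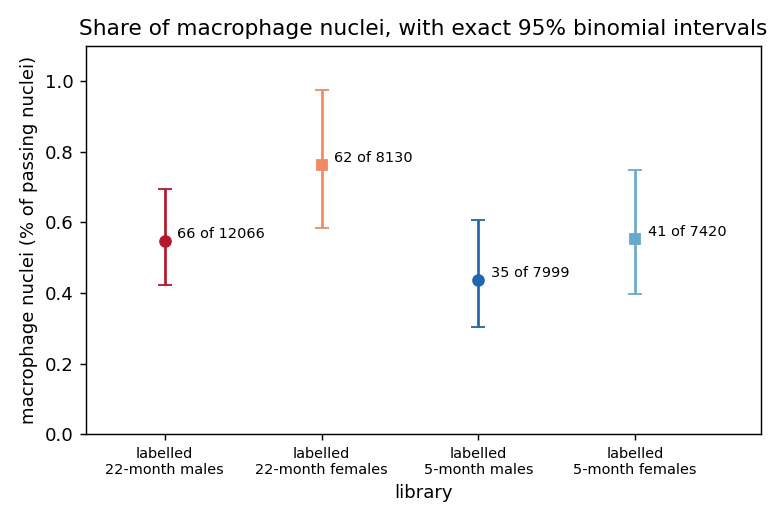
Points give macrophage nuclei as a percentage of all passing nuclei in each library as labelled, with exact 95% binomial intervals for counting error alone. The share is highest in 22-month females at 0.763% and lowest in 5-month males at 0.438%, and the intervals overlap between ages.

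Labelled age was tested on UMIs summed over macrophage nuclei in each library, with labelled sex as a term, by the quasi-likelihood test of edgeR, with p adjusted over all 3884 genes (Benjamini-Hochberg). The fit had 1 residual degree of freedom. It called 5 genes, which is 0.129% of those tested, 2 of them higher (0.0515%) and 3 lower (0.0772%) in the 22-month libraries, against 363 at an unadjusted p under 0.05. Of these, 4 are sex-linked. Xist rose (adjusted p = 0.0025), with 582 and 328 UMIs in 22-month males and females and none in either 5-month library, and its antisense partner Tsix rose (adjusted p = 0.014), with 76 and 38 UMIs in 22-month males and females against 1 and 0 in 5-month males and females. Xist and Tsix overlap on opposite strands of the X chromosome, and the sources used here do not state how the counting used strand. The Y-linked Uty and Eif2s3y fell (adjusted p = 0.0080 and 0.024), with no UMI in the 22-month libraries, against 30 and 36 UMIs of Uty and 19 and 24 of Eif2s3y in 5-month males and females. The directions of these 4 genes are those of the Xist-bearing against the Y-bearing libraries.

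The fifth gene was Fshb, the follicle-stimulating hormone subunit made by gonadotropes. It fell, with 7 and 9 UMIs in 22-month males and females against 21 and 89 in 5-month males and females (log2 difference -3.11 ± 0.46 SE, adjusted p = 0.044 by edgeR). Of the 89 UMIs, 50 were in 1 nucleus, and the call was lost under 6 of 11 alternative settings. The other nuclei of the same libraries had Fshb at 36.7 and 52.7 CPM in 22-month males and females, against 233 and 249 CPM in 5-month males and females. The test of the age difference in macrophage nuclei less that in the other nuclei called no gene of 3884 by edgeR (0%), with 329 at an unadjusted p under 0.05, and DESeq2 called 41. The clusters were not spread alike over the libraries: cluster 7 held 19 and 12 nuclei of 22-month males and females, against 1 and 5 of 5-month males and females, and cluster 3 held 2 and 0 nuclei of 22-month males and females, against 9 and 6 of 5-month males and females. Microglia-like cluster 1 held 11 and 9 nuclei of 22-month males and females, against 8 and 9 of 5-month males and females. The part of these unequal clusters in the age values was not tested. Leaving out 1 library moved the count of age calls to 400 without 22-month males, 56 without 22-month females, 2 without 5-month males and 0 without 5-month females, and the cause was not tested.

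Of the 833 tested genes at least 2-fold higher in macrophage nuclei, 687 had a positive age difference, with a median log2 of 0.43, and none was called. Of the 256 at least 2-fold lower, 35 had a positive one, with a median of -0.78. Over all 3884 genes 1956 were positive, with a median of 0.0044. The sets of higher and lower genes were chosen by summed levels in these same nuclei. The 22-month males and females gave 239773 and 175495 UMIs to those sums, against 125548 and 157230 from 5-month males and females. Counts of directions in these sets are therefore a description and no support for an age difference. By list, the difference was positive for 22 of 25 leukocyte signalling genes, 13 of 15 transcription factors, 9 of 11 receptors for dying cells and lipoproteins and 8 of 10 antigen presentation genes, with medians of 0.42, 0.32, 0.62 and 0.58, and no gene of these lists was called. The 1277 macrophage-enriched genes took 18.2% and 27.4% of the summed UMIs in 22-month males and females, against 14.9% and 16.1% in 5-month males and females, while their median share per nucleus was 25.6% and 31.0%, against 26.7% and 29.2%. When library sizes were taken from those genes, the median age difference of all genes became -0.44. On that scale the antigen presentation list had 22-month to 5-month ratios of 0.761 in males (0.687 to 0.844) and 0.833 in females (0.757 to 0.918), on the other side of 1 from most of its fitted differences. The ratios were 1.02 in males and 1.11 in females for leukocyte signalling, 1.02 and 1.08 for transcription factors, and 1.01 and 1.17 for receptors for dying cells and lipoproteins.

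Aoah, an enzyme that inactivates bacterial lipopolysaccharide (chromosome 13, 20794113 to 21036617, plus strand, mm10, GENCODE M21), came next to the threshold and was chosen after its values were seen. It had 48 and 53 UMIs in 22-month males and females, against 4 and 5 in 5-month males and females. The UMIs came from 24 and 28 nuclei in the 22-month libraries, against 4 and 4 in the 5-month libraries. Cluster 6, of which Aoah is a leading gene, held 53 of the 110 UMIs, and 10 and 23 of its nuclei were of 22-month males and females, against 4 and 3 of 5-month males and females. The log2 difference was 2.87 ± 0.46 (SE), with an adjusted p of 0.077 by edgeR. The difference was positive under all 13 alternative settings tried for this gene, with adjusted p between 5.5e-08 and 0.89, and called in 5 of them. The ratio of CPM was 6.28 in males (95% counting interval 2.30 to 24) and 9.50 in females (3.82 to 30.4). In the 151 nuclei it was 4.26 in males (1.34 to 21.6) and 4.72 in females (1.73 to 18.0).

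Gm5086, a long intergenic non-coding RNA (chromosome 13, 97559971 to 97583996, plus strand), is one of the 25 genes with the highest macrophage ratio. It had 363 and 519 CPM in 22-month males and females, against 95.6 and 114 CPM in 5-month males and females (adjusted p = 0.17 by edgeR). In the 151 nuclei its ratio was 3.84 in males (1.67 to 10.9) and 2.29 in females (1.29 to 4.37). Rbpj, the nuclear effector of Notch signalling and also chosen after its values were seen, had 309 and 422 CPM in 22-month males and females, against 104 and 108 CPM in 5-month males and females (adjusted p = 0.29 by edgeR). Its ratio in the 151 nuclei was 2.66 in males (1.27 to 6.44) and 2.06 in females (1.13 to 4.06).

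The interferon response list, 20 genes in the files, summed to 938 and 1385 CPM in the macrophage nuclei of 22-month males and females, against 510 and 407 CPM in 5-month males and females. The other nuclei of the same libraries lay between 114 and 173 CPM, with the 22-month libraries at 114 and 134 CPM and the 5-month libraries at 136 and 173 CPM in males and females. The ratio was 1.84 in males (1.39 to 2.47) and 3.40 in females (2.57 to 4.55), and in the 151 nuclei 1.74 (1.23 to 2.52) and 1.85 (1.34 to 2.58). Only 4 of its genes passed the filter of the test and none was called. Ifi44 had 12 and 11 UMIs in 22-month males and females and none in the 5-month libraries. Oas2, a sensor of double-stranded RNA, had 13 and 12 UMIs in 22-month males and females, against 1 and 0 in 5-month males and females. Herc6, an interferon-induced ubiquitin ligase, had 28 and 43 UMIs in 22-month males and females, against 9 and 7 in 5-month males and females, with an adjusted p of 0.46 by edgeR. Other genes of the list did not rise alike in both labelled sexes. Per 10000 UMIs of macrophage-enriched genes, Ifi207, with 126 UMIs, stood at 8.03 and 11.9 in 22-month males and females. In 5-month males and females it stood at 8.02 and 7.51. Parp14, with 101 UMIs, stood at 6.89 and 7.07 in 22-month males and females, against 11.2 and 6.33 in 5-month males and females. Of the 225 UMIs of the list in 22-month males, 38 were in 1 nucleus.

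The microglia list ran the other way in the 151 nuclei. It summed to 2037 and 2394 CPM in 22-month males and females, against 3497 and 3737 CPM in 5-month males and females, so the ratio was 0.583 in males (0.465 to 0.733) and 0.640 in females (0.536 to 0.767). The list holds the rule gene Cx3cr1, and without it the ratios were 0.560 in males (0.433 to 0.727) and 0.564 in females (0.459 to 0.694). In all 204 nuclei the ratios were 0.958 and 1.17, and of its 7 tested genes 2 had a positive difference and none was called. Its genes differed in direction. P2ry12, with 135 UMIs, was seen in 42.4% and 33.9% of nuclei of 22-month males and females, against 25.7% and 24.4% of 5-month males and females. Siglech, with 110 UMIs, was seen in 15.2% and 24.2%, against 25.7% and 36.6%, of the same nuclei. Tmem119, a surface protein of microglia, had 3 and 4 UMIs in 22-month males and females, against 11 and 11 in 5-month males and females (log2 difference -2.23 ± 0.84 SE, adjusted p = 0.51 by edgeR). In the test on the 151 nuclei, 5 of 1785 genes were called by edgeR, and Tmem119 fell, with 2 and 4 UMIs in 22-month males and females, against 8 and 9 in 5-month males and females (adjusted p = 0.045 by edgeR, the lowest of its 13 alternative settings, with 0.95 the highest). The others were Xist, Tsix, Uty and Prl, the prolactin transcript of lactotropes. Prl stood at 58547 and 29163 CPM in all macrophage nuclei of 22-month males and females, against 16241 and 4547 CPM in 5-month males and females, while in the other nuclei it stood at 67566 and 40145 CPM in 22-month males and females, against 15979 and 8993 CPM in 5-month males and females.

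The 4 class II genes summed to 3107 and 4370 CPM in all macrophage nuclei of 22-month males and females, against 3839 and 3384 CPM in 5-month males and females, so the groups overlapped. In the 151 nuclei they summed to 4911 and 5400 CPM in 22-month males and females, against 6550 and 7871 CPM in 5-month males and females, with ratios of 0.750 (0.641 to 0.879) and 0.686 (0.608 to 0.775). The complement list had ratios of 1.03 in males (0.838 to 1.27) and 0.832 in females (0.696 to 0.997) there, and without C1qa 1.02 (0.782 to 1.35) and 0.822 (0.662 to 1.03). Apoe had 0.768 in males (0.673 to 0.876) and 1.38 in females (1.20 to 1.59), and Mrc1 0.473 (0.287 to 0.786) and 1.13 (0.690 to 1.93), so the ratios of the labelled sexes lay on different sides of 1. The immediate-early list had 0.467 in males (0.310 to 0.708) and 0.446 in females (0.273 to 0.732), beside 201 and 192 CPM in the other nuclei of 22-month males and females and 845 and 222 CPM in those of 5-month males and females.

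**Figure D5:**
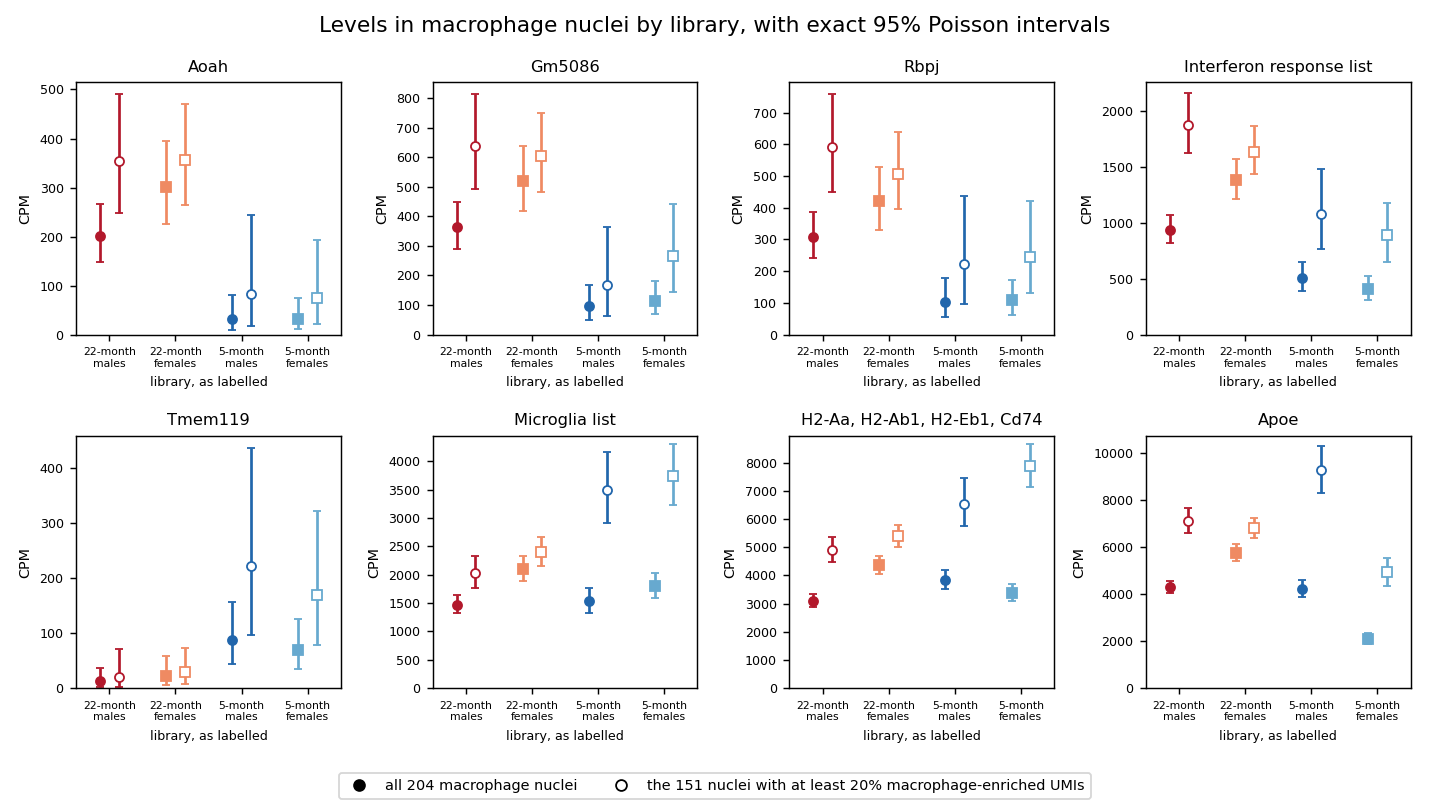
Points give the CPM of single genes and summed lists in the macrophage nuclei of each library as labelled, with exact 95% Poisson intervals that cover counting error only, for all 204 nuclei (filled) and for the 151 with at least 20% of UMIs in macrophage-enriched genes (open). Aoah, Gm5086, Rbpj and the interferon list are higher in both 22-month libraries in both sets of nuclei, and the microglia list and the class II genes are lower there in the 151 nuclei, while the order of Apoe differs between the labelled sexes.

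Labelled sex was tested in the same fit with labelled age as a term, and edgeR called 0 of 3884 genes (0%), with 153 at an unadjusted p under 0.05, while DESeq2 called 2, Gh and Prl. Leaving out 1 library gave 7 calls without 22-month males, 14 without 22-month females, 19 without 5-month males and 170 without 5-month females. The test of the sex difference in macrophage nuclei less that in the other nuclei called 0 genes by edgeR (0%), with 127 at an unadjusted p under 0.05, and DESeq2 called 1, Gh. Because the labels of 2 libraries go against their sex-linked transcripts, this contrast does not compare males with females. Plin2, which coats lipid droplets, had 41.7 CPM in 22-month males and 319 CPM in 22-month females, and 47.8 CPM in 5-month males and 95.4 CPM in 5-month females (log2 difference of males less females -2.05 ± 0.52 SE, adjusted p = 0.99 by edgeR). Tlr7, on the X chromosome, had 83.4 CPM in 22-month males and 268 CPM in 22-month females, and 23.9 CPM in 5-month males and 82.7 CPM in 5-month females (log2 difference -1.57 ± 0.42 SE, adjusted p = 0.99 by edgeR). Genes at least 2-fold higher in macrophage nuclei had a positive sex difference in 223 of 833 cases, with a median log2 of -0.26. For genes at least 2-fold lower the values were 220 of 256 and 0.50. These sets were chosen from the same sums, so the counts are a description.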

How the data were processed

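Nuclei from snap-frozen pituitaries were captured on the 10x 3′ platform, with a target of 10000 cells per pool of 3 glands. The deposited values are counts of UMIs per gene and barcode made with Cell Ranger 7.0.1, per the file headers, on mm10, per the submitters' processing notes. The sources used here do not say whether introns were counted. Barcodes numbered 13595, 8509, 8343 and 7765 in the 22-month male, 22-month female, 5-month male and 5-month female libraries. Barcodes under 500 genes (1411, 303, 288 and 271) and those at 5% mitochondrial UMIs or more (118, 76, 56 and 74) were left out. Scrublet in scanpy 1.11.5 was run per library with 1 common threshold, and doublets were kept and left out only as an alternative.

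UMIs were summed over macrophage nuclei per library and tested with edgeR 4.0.16 in R 4.3.3 (quasi-likelihood, TMM, labelled age and labelled sex as terms), and against the other nuclei by an interaction over 8 sums. Genes were called at an adjusted p under 0.05. With 1 library per group, p-values rest on 1 residual degree of freedom and a spread shared across genes. Of 100 genes simulated with a 4-fold difference, the age test recovered 0 to 62 in 10 simulations over 3884 genes (median 47). In 2 of the simulations none was recovered, and of 100 genes with a 2-fold difference 0 to 7 were. The simulations gave every gene the same spread and every library the same composition, unlike these data. Recovery in the real sums can therefore differ. CPM values were compared between nuclei for 1 gene, not between genes. Intervals (exact Poisson, binomial or conditional binomial, 95%) cover counting error only, and a count of 0 was set to 3 counts for bounds. Nuclei were clustered with leidenalg 0.10.2 at resolution 1, using 1000 variable genes of the 1277 macrophage-enriched ones, 15 components and 10 neighbours.

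Named genes are the 8 rule genes, members of the gene lists, the 25 genes with the highest ratio, and genes with the smallest p among those called; others are said to be chosen after their values were seen. Macrophage nuclei and gene lists were chosen with earlier results of these data known. Alternatives were DESeq2 1.42.0, its size factors, no filter on low counts, other membership rules, doublets left out, thinning to 1500 UMIs, each library left out (with only the tested label as a term), and, added after the data were seen, library sizes from macrophage-enriched genes and the 151 nuclei alone.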

Additional observations from a re-analysis of the deposited data

Results flagged for a closer look

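Pairs of ratios of summed levels pointed in different directions in the 2 labelled sexes or at the 2 labelled ages. These differences were not tested, and with 1 library per group their spread is unknown. The ratios below are over the summed UMIs of all 204 nuclei. The border macrophage list had a male to female ratio of 0.593 at 22 months and 1.35 at 5 months. The lysosome and lipid list had a male to female ratio of 0.722 at 22 months and 1.502 at 5 months. The iron list had a 22-month to 5-month ratio of 0.677 in males and 1.34 in females. The MHC class I list had a 22-month to 5-month ratio of 0.819 in males and 1.43 in females, and a male to female ratio of 0.745 at 22 months and 1.30 at 5 months. Per 10000 UMIs of macrophage-enriched genes, only the border macrophage list kept its opposite directions. It stood at 89.98, 100.6, 99.96 and 68.8 in the 22-month male, 22-month female, 5-month male and 5-month female libraries. In these libraries the lysosome and lipid list stood at 384, 352, 479 and 296. The iron list stood at 46.6, 36.8, 83.9 and 46.7 and the MHC class I list at 64.3, 57.2, 95.7 and 68.0.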

How the results depend on the processing

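No paired analysis was possible because each group has 1 library and no replicate numbers pair the libraries. The 5 age calls became 10 with DESeq2, 50 without a filter on low counts, 40 without doublets, 3 with at least 4 rule genes, 48 without the limit on Ghrhr, Pappa2 and Epha6, 2 with library sizes from macrophage-enriched genes, and 0 to 400 with 1 library left out. The 0 sex calls became 2 with DESeq2, 30 without a filter, 2 in the 151 nuclei (Fgf13 and Plcb1, chosen after their values were seen) and 7 to 170 with 1 library left out. The 0 age calls against the other nuclei became 41 with DESeq2, 35 without a filter, 212 without doublets and 0 to 374 with 1 library left out, and the 0 sex calls against the other nuclei became 1, 12, 10 and 0 to 81 under the same settings. The cause of these shifts was not tested.

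The share of macrophage nuclei with at least 4 rule genes was 0.373% in 22-month males, 0.615% in 22-month females, 0.275% in 5-month males and 0.377% in 5-month females. Without the limit it was 0.729% in 22-month males and 1.17% in 22-month females. After thinning it was 0.272%, 0.503%, 0.219% and 0.252% in the 22-month male, 22-month female, 5-month male and 5-month female libraries. In the 151 nuclei it was 0.381% in 22-month males, 0.250% in 5-month males and 0.377% in 5-month females.

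Single genes changed direction, all as log2 differences and none called in all 204 nuclei. Cd74 (-0.19 for age) was 0.074 without 5-month males and 0.0073 without 22-month males, within -0.37 to 0.074 with 1 library left out. Mrc1 (0.38) was -0.015 without the limit, -0.065 with library sizes from macrophage-enriched genes and -0.43 in the 151 nuclei. C1qa (0.38) was -0.21, -0.070 and -0.065 under those 3 settings. Siglech (-0.49) was 0.079 without 5-month females and -0.92 without 5-month males. Plcb1 for sex (0.33) was -0.62 without doublets, -0.42 without the limit, -0.18 without 22-month females (0.82 without 5-month females) and -4.37 in the 151 nuclei. The cause was not tested. Depth limits genes with few UMIs, such as Tmem119 and Oas2.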
